A study of Homo sapiens with 4 samples.

Results

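The genes of the RNA interference machinery were followed in RNA-seq libraries from a knockdown of the long noncoding RNA LINC01186, which the study calls SALIS. The set holds 10 genes chosen by name for core steps of microRNA maturation and silencing: DROSHA, DGCR8, XPO5, DICER1, AGO1, AGO2, AGO3, AGO4, TNRC6A and TNRC6B. Each was found by its symbol as 1 of the 44591 genes in the tables, so 10 of 10 were measured. The rule goes by gene symbol and uses no measured value. The cells were labelled HepG2, an established human liver cancer line, and every library came from cells that received a small interfering RNA (siRNA). The siNC group received a control siRNA and the siLINC01186 group an siRNA against LINC01186, with 2 libraries in each group, numbered 1 and 2. Cells of both groups were kept with the transfection mix for 6 h without serum and for 24 h more with 10% serum before lysis. The study describes the 2 siLINC01186 libraries as made with different siRNA sequences and the 2 siNC libraries with the same one. Which sequence went into which library is not in the labels, so a difference between siLINC01186 1 and 2 cannot be told apart from a difference between siRNA sequences. Untransfected cells were not analysed here, and every level is therefore a level after siRNA transfection.

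RNA interference and the microRNA pathway share their effector machinery. In the nucleus a long primary transcript is cut to a hairpin by the nuclease DROSHA with its RNA-binding partner DGCR8, and exportin-5 (XPO5) carries the hairpin to the cytoplasm. There DICER1 trims it to a short duplex, and one strand is kept by an Argonaute protein, which also takes up transfected siRNAs. Argonaute bound to a guide strand recruits TNRC6 proteins, which bring in the enzymes that shorten the poly(A) tail and remove the cap of the target mRNA.

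The libraries held between 14968958 and 17297245 counts, and 3 counts corresponded to between 0.169 and 0.210 counts per 1000000 counts (CPM). CPM here is the count over the library size scaled by TMM, a trimmed mean of ratios between libraries. LINC01186 itself had 15 and 14 counts in siNC 1 and 2, and 12 and 14 counts in siLINC01186 1 and 2. The log2 fold change was -0.12 (SE 0.53, adjusted p = 1.00 by edgeR's quasi-likelihood fit over all genes). No lower level was detectable at this depth: the ratio of siLINC01186 to siNC had a 95% exact conditional interval of 0.401 to 2.15 for the libraries numbered 1 and of 0.401 to 2.06 for those numbered 2 (counting error only). The groups below are therefore the libraries labelled siNC and siLINC01186. The hepatocyte genes that define HepG2 were near 0: ALB, serum albumin, had 0, 0, 15 and 14 counts in siNC 1, siLINC01186 1, siNC 2 and siLINC01186 2, and AFP, alpha-fetoprotein, had 2, 4, 6 and 16. APOA1, a plasma lipoprotein, had 0, 0, 21 and 20 counts in the same order, and only HNF4A among 10 hepatocyte markers passed 30 counts in any library, with 79, 83, 161 and 188. The 10 markers summed to 4.90 and 6.30 CPM in the libraries numbered 1 and to 17.1 and 15.5 CPM in those numbered 2. Of 5 fibroblast markers all were detected, with sums of 52.3 and 50.9 CPM in the libraries numbered 1 and of 86.7 and 84.6 CPM in those numbered 2. For 3 endothelial markers the sums lay between 1.79 and 3.22 CPM. Of 4 leukocyte markers CD68 held nearly all counts (786 to 912 per library), CD3E was at 0 in all libraries and PTPRC at 0 to 2 counts. These values go against the HepG2 label, so "cells labelled HepG2" is used here. The hepatocyte and fibroblast sums moved with the replicate number and not with the siRNA, and the part of the cells' identity in the results below was not tested.

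The siRNA sequences and their matches in the member mRNAs are shown first, since a transfected siRNA is loaded into the Argonaute proteins whose mRNAs are measured here. The study lists 2 siRNAs against SALIS. Each was read as the listed strand and its complement, 5′ to 3′, with bases 2 to 8 (the seed, through which a guide strand pairs with mRNAs) in capitals.
siSALIS_01, listed strand: aGGGCTCTattgggcaaaaa
siSALIS_01, complement: tTTTTGCCcaatagagccct
siSALIS_02, listed strand: cTAAGTGActcactgcatc
siSALIS_02, complement: gATGCAGTgagtcacttag
The listed strand of siSALIS_02 was found at positions 227 to 245 of the LINC01186 transcript of GENCODE release 29 (GRCh38), on the same strand. The siSALIS_01 sequence was not found in that transcript. Only an exact match of the whole listed sequence was searched, which has 20 nt for siSALIS_01 and 19 nt for siSALIS_02. By qPCR, the study reports a lower SALIS level in HepG2 cells after its siRNAs.

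Matches to the seeds were searched, on the mRNA strand only, in the longest annotated 3′ untranslated region (UTR) of 19120 protein-coding genes. The letters that pair with the siSALIS_02 seeds are TCACTTA and ACTGCAT. They occurred in 11.3% and 12.6% of these UTRs, and either in 20.8%. The members had long UTRs, with a median of 4278 nt against 1424 nt over the 9468 protein-coding genes with a mean of at least 10 CPM. Of the 10 members, 4 held such a match, with 2 matches in each. They are shown because their positions are set beside the measured differences further on, with the match in capitals and GRCh38 coordinates of the 7 capital bases.
DICER1, chr14:95089144-95089150, minus strand: aggcactctTCACTTAaatacctca
DICER1, chr14:95086961-95086967, minus strand: ctttttttaACTGCATctgaaatta
AGO1, chr1:35928238-35928244, plus strand: ttcatgtgcTCACTTActatcccca
AGO1, chr1:35924909-35924915, plus strand: gactgtaaaACTGCATttatagata
AGO3, chr1:36069590-36069596, plus strand: gtgtagtgtTCACTTAcaaacatat
AGO3, chr1:36064033-36064039, plus strand: ccatgagccACTGCATctggccaag
TNRC6B, chr22:40328232-40328238, plus strand: cccaataaaTCACTTAtccatttat
TNRC6B, chr22:40335359-40335365, plus strand: atcactggtTCACTTAaaaaaacaa
AGO2, AGO4, DROSHA, DGCR8, XPO5 and TNRC6A held neither heptamer in their longest annotated 3′ UTR. The siSALIS_01 letters, AGAGCCC and GGCAAAA, occurred in 12.0% and 13.2% of all UTRs and either in 22.6%. They were found in 7 members: 6 times in AGO3, 4 times in TNRC6B, 2 times each in AGO1 and AGO2, and 1 time each in AGO4, DICER1 and DROSHA. A match of letters is a description of the window and does not show that an siRNA acts there.

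All 10 members were expressed in the siNC libraries. Levels between genes were compared per length, as TPM, a share of transcripts scaled to the same total in each library, computed by the authors from the counts and the gene lengths of their tables. DROSHA stood highest at 66.4 ± 5.78 TPM (SD, n = 2), followed by XPO5 at 65.5 ± 8.78 and AGO2 at 56.3 ± 0.832 TPM. TNRC6A at 29.8 ± 1.90 and DGCR8 at 28.2 ± 6.10 TPM formed the next step. DICER1 at 15.3 ± 0.291, AGO1 at 14.0 ± 1.46 and AGO3 at 12.8 ± 0.960 TPM came after them, and TNRC6B at 6.34 ± 0.984 and AGO4 at 4.50 ± 1.02 TPM were lowest. The ranges of the 2 siNC libraries overlapped between the neighbours DROSHA and XPO5, TNRC6A and DGCR8, and AGO1 and AGO3, and did not overlap between the other neighbours. Among the Argonautes, AGO2, the one human Argonaute known chiefly for cutting a fully paired target, was the highest per length. This place depends on the gene length in the tables, which is 3500 nt for AGO2 while the longest annotated AGO2 3′ UTR alone has 11888 nt. The places of AGO3 (3645 nt, UTR 16755 nt) and AGO1 (7589 nt, UTR 10921 nt) depend on it likewise. Without the length, AGO3 had a mean of 21.4 CPM in siNC, below TNRC6B at 54.3 CPM. Levels per length in the siLINC01186 libraries were not used, since 1 short gene, MIR6087, held 13.8% and 8.69% of all TPM there against 1.16% and 1.91% in the siNC libraries, which lowers the TPM of every other gene.

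**Figure D1:**
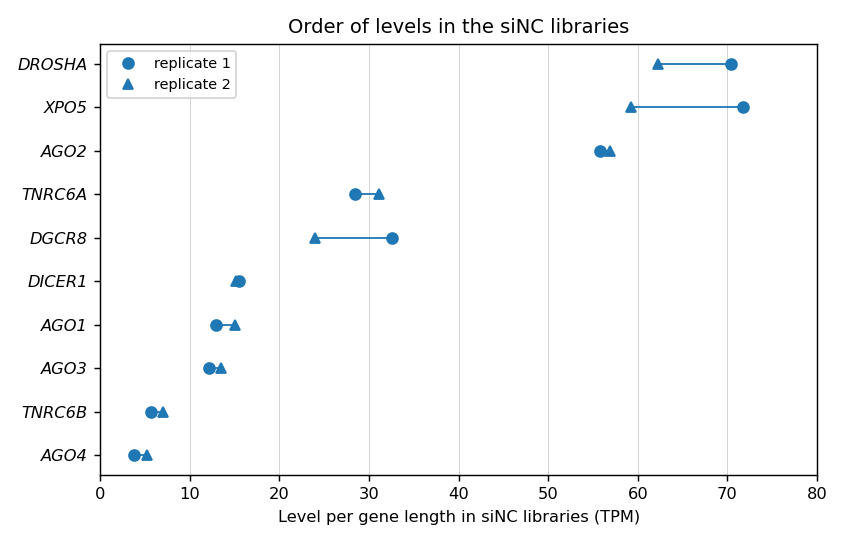
Level per length (TPM, linear axis) of the 10 genes in siNC 1 and siNC 2, each point 1 library, ordered by the mean. DROSHA, XPO5 and AGO2 stood above 50 TPM, and TNRC6B and AGO4 lay below the other genes.

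No member passed the limits in the comparison of siLINC01186 with siNC. The limits, those the study names for this comparison, were a log2 fold change beyond 1 in size and an unadjusted p under 0.05. Of 23942 genes tested, 0.464% were higher and 0.292% lower past these limits, and of the 10 members 0 were higher and 0 lower, also by DESeq2's Wald test, with 0 members at an unadjusted p under 0.05 in either tool. The unadjusted p ran from 0.140 for DICER1 to 0.981 for XPO5 and the adjusted p was 1.00 for each member (edgeR's quasi-likelihood test, Benjamini-Hochberg), which holds for every member value given below from this comparison. The log2 fold changes ran from -0.52 for DICER1 to 0.07 for DGCR8, with 7 below 0, 3 above 0 and a median of -0.15, beside a median of 0.00 over all genes tested. Over all genes 0 had an adjusted p under 0.05 in edgeR and 1 in DESeq2, and 289 had an unadjusted p under 0.05 in edgeR. These fits left the replicate number out. With the number as a block, 278 genes had an adjusted p under 0.05 in edgeR's quasi-likelihood test. Of the members only DICER1 did (adjusted p = 0.000548), and its low level was in siLINC01186 2 alone. In RNA from whole cultures, a loss of cells that express a gene and a lower level per cell cannot be told apart.

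Beyond the test, 4 of the 10 members (DICER1, AGO1, AGO2 and AGO3) were lower in both siLINC01186 libraries than in both siNC libraries, and 0 were higher in both. Among the 10180 genes with a mean of at least 10 CPM, a range that holds all members, 12.0% were lower and 11.8% higher without overlap. In the pair numbered 1 the members differed little, with a log2 difference (siLINC01186 minus siNC, log2 CPM) between -0.19 for TNRC6A and 0.18 for AGO4. In the pair numbered 2 they ran from -1.16 for DICER1 to 0.25 for DGCR8. The medians over the members were -0.09 in pair 1 and -0.29 in pair 2, beside 0.01 and -0.01 over the 10180 genes. A value below 0 was seen in 7 members in each pair, beside 48.2% of the 10180 genes in pair 1 and 52.5% in pair 2. In AGO4 and TNRC6B the sign turned from above 0 in pair 1 to below 0 in pair 2, while TNRC6A and DGCR8 did the reverse.

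**Figure D2:**
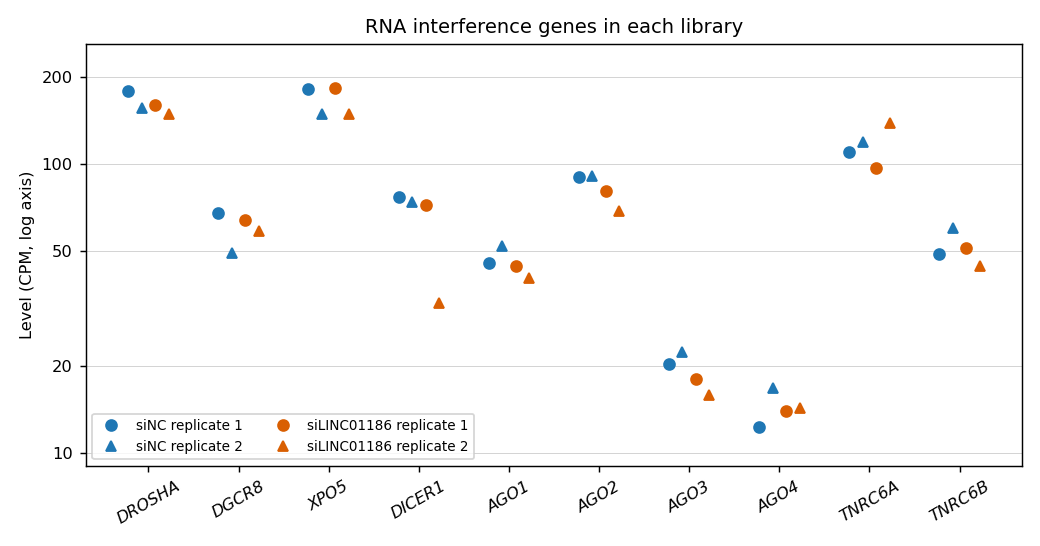
Level of the 10 genes in CPM (log axis) in each of the 4 libraries, 1 point per library, ordered by role. The DICER1 point of siLINC01186 2, at 33.0 CPM, lies well under its other 3 points, which lie between 72.3 and 76.7 CPM.

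The nuclear steps came first in the pathway and showed no shared direction. DROSHA (5:31400601-31532282, minus strand, hg19) had 178 and 156 CPM in siNC 1 and 2, and 160 and 149 CPM in siLINC01186 1 and 2. Both siLINC01186 values were below their own siNC partner, but siLINC01186 1 was above siNC 2, so the groups overlapped. The log2 fold change was -0.11 (SE 0.18). Its partner DGCR8 (22:20067755-20099400, plus strand, hg19) had 67.8 and 49.2 CPM in siNC 1 and 2, and 63.9 and 58.7 CPM in siLINC01186 1 and 2. The siNC libraries were the highest and the lowest of the 4, with a ratio of siNC 2 to siNC 1 of 0.726 (95% exact conditional interval 0.662 to 0.796, counting error only). Its log2 fold change was 0.07 (SE 0.21). The microRNA hairpin genes MIR1306 and MIR3618, which lie within DGCR8 on the same strand, had 0 counts in all libraries.

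XPO5, the exporter of the hairpin (6:43490068-43543812, minus strand, hg19), had 182 and 148 CPM in siNC 1 and 2, and 182 and 149 CPM in siLINC01186 1 and 2. Its level followed the replicate number and was nearly equal within each number. The ratio of siLINC01186 to siNC was 1.00 in pair 1 (interval 0.952 to 1.06) and 1.00 in pair 2 (interval 0.950 to 1.06), while siNC 2 over siNC 1 was 0.817 (interval 0.774 to 0.862). The log2 fold change was 0.00 (SE 0.20). POLR1C overlaps XPO5 over 7047 nt on the opposite strand with 530 to 831 counts per library, and whether reads were counted by strand is not given in the sources used here.

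DICER1, the nuclease that cuts the hairpin in the cytoplasm (14:95552565-95624347, minus strand, hg19), had the largest difference of the 10. It had 1284 and 1190 counts in siNC 1 and 2, and 1033 and 586 counts in siLINC01186 1 and 2, which is 76.7, 73.7, 72.3 and 33.0 CPM. The siNC libraries and siLINC01186 1 lay close together, and siLINC01186 2 alone was low. The ratio of siLINC01186 to siNC was 0.943 in pair 1 (interval 0.868 to 1.02), which includes 1, and 0.447 in pair 2 (interval 0.405 to 0.494). The 2 siNC libraries had a ratio of 0.962 (interval 0.888 to 1.04).

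With group means of 75.2 ± 2.08 CPM in siNC and 52.6 ± 27.8 CPM in siLINC01186 (SD, n = 2), the log2 fold change of DICER1 was -0.52 (SE 0.32, adjusted p = 1.00, edgeR's quasi-likelihood test). The value rested on 1 library: it was -0.06 without siLINC01186 2 and -1.19 without siLINC01186 1, where DICER1 passed the limits (unadjusted p = 0.000615, adjusted p = 0.708, same fit). In pair 2, 53 of the 10180 genes (0.521%) had a log2 difference below -1, and DICER1 was 1 of the 10 members among them, 28th from the lowest. In pair 1, 1 gene of the 10180 (0.00982%) and 0 members had such a difference. The overlapping gene on the opposite strand, DICER1-AS1, shares 323 nt with DICER1 and had 14 and 30 counts in siNC 1 and 2, and 13 and 37 counts in siLINC01186 1 and 2.

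**Figure D3:**
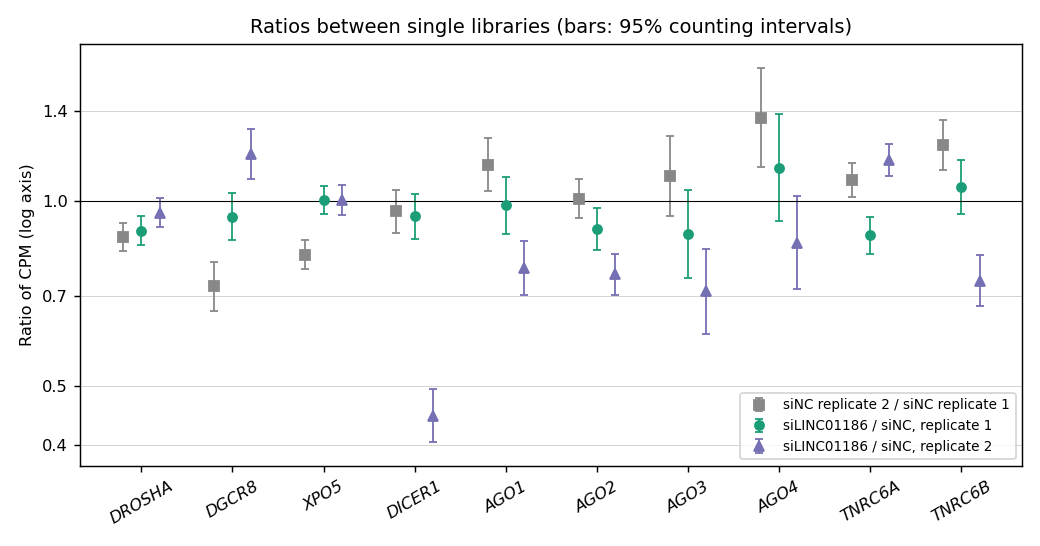
Ratio of CPM (log axis) of siLINC01186 to siNC within replicate numbers 1 and 2, and of siNC 2 to siNC 1, for the 10 genes. Bars are 95% exact conditional intervals that cover counting error only. The DICER1 ratio of 0.447 in pair 2 is the lowest, and siNC 2 over siNC 1 alone ranges from 0.726 for DGCR8 to 1.37 for AGO4.

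The Argonautes hold the guide strand, and their genes AGO4, AGO1 and AGO3 are neighbours on the plus strand of chromosome 1 (AGO4 1:36273828-36323491, AGO1 1:36335409-36389900 and AGO3 1:36396683-36522063, hg19). AGO2 had 89.9 and 90.7 CPM in siNC 1 and 2, and 80.9 and 68.8 CPM in siLINC01186 1 and 2. Both siLINC01186 libraries lay below both siNC libraries, which differed from each other by less than counting error (ratio 1.01, interval 0.938 to 1.08). The ratio of siLINC01186 to siNC was 0.900 in pair 1 (interval 0.833 to 0.972) and 0.759 in pair 2 (interval 0.703 to 0.819). In the replicated comparison the log2 fold change was -0.27 (SE 0.18), which did not pass. AGO2 was the only one of the 10 members whose interval lay below 1 in both pairs. Other genes of the pathway, such as XPO1, LIMD1 and ZSWIM8, also had both intervals below 1. In others, such as SRRT and SRSF3, both lay above 1. These intervals cover counting error only, and the share of all genes with both intervals below 1 was not computed.

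AGO1 had 45.3 and 51.8 CPM in siNC 1 and 2, and 44.5 and 40.3 CPM in siLINC01186 1 and 2. The groups did not overlap, but siLINC01186 1 and siNC 1 differed by less than counting error, with a ratio of 0.984 (interval 0.884 to 1.09). In pair 2 the ratio was 0.778 (interval 0.703 to 0.861), and the log2 fold change over both pairs was -0.19 (SE 0.19).

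AGO3, the next gene on the chromosome, had 20.4 and 22.4 CPM in siNC 1 and 2, and 18.0 and 15.9 CPM in siLINC01186 1 and 2. It too was lower in both siLINC01186 libraries, by a ratio of 0.884 in pair 1 (interval 0.749 to 1.04) and 0.712 in pair 2 (interval 0.607 to 0.834). The log2 fold change was -0.33 (SE 0.21). AGO4, the lowest of the 4 Argonautes, had 12.3 and 16.8 CPM in siNC 1 and 2, and 13.9 and 14.3 CPM in siLINC01186 1 and 2. Both siLINC01186 values lay between the siNC values, and the log2 fold change was -0.04 (SE 0.25). Along the chromosome, the log2 differences of AGO4, AGO1 and AGO3 were 0.18, -0.02 and -0.18 in pair 1 and -0.22, -0.36 and -0.49 in pair 2.

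The TNRC6 proteins connect Argonaute to the mRNA decay enzymes, and the genes measured differed in opposite directions. TNRC6A (16:24741049-24837548, plus strand, hg19) had 110 and 119 CPM in siNC 1 and 2, and 96.9 and 139 CPM in siLINC01186 1 and 2. The siLINC01186 libraries were the lowest and the highest of the 4, with a ratio to siNC of 0.879 in pair 1 (interval 0.819 to 0.943) and 1.16 in pair 2 (interval 1.10 to 1.24). Both intervals leave out 1, on opposite sides, and the log2 fold change was 0.04 (SE 0.22). TNRC6B (22:40440821-40731812, plus strand, hg19) had 48.7 and 59.9 CPM in siNC 1 and 2, and 51.2 and 44.4 CPM in siLINC01186 1 and 2. It was near its partner in pair 1 (ratio 1.05, interval 0.952 to 1.16) and below it in pair 2 (ratio 0.741, interval 0.674 to 0.815), with a log2 fold change of -0.18 (SE 0.20). TNRC6C, the other gene of this family and not a member, was lower in level, between 6.15 CPM in siNC 1 and 7.88 CPM in siLINC01186 2 (log2 fold change 0.15).

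In pair 2 the members with siSALIS_02 seed letters in their 3′ UTR were DICER1, AGO3, TNRC6B and AGO1, with log2 differences of -1.16, -0.49, -0.43 and -0.36. The 6 members without them ran from -0.40 for AGO2 to 0.25 for DGCR8, with a median of -0.03. AGO2 thus lay within the range of the first 4. The AGO3 matches lie at positions 8288 and 13845 of its longest UTR, beyond its whole deposited gene length of 3645 nt. Of the AGO1 matches, the match at position 8631 lies beyond the deposited AGO1 length of 7589 nt. Whether the mRNAs counted here hold these stretches was not tested. The letters of both siSALIS_02 strands are pooled here. The complement is the strand that pairs with LINC01186. Its letters, ACTGCAT, were found in DICER1, AGO1 and AGO3 and not in TNRC6B. In pair 1 the same groups of genes overlapped, from -0.18 to 0.07 with the letters and from -0.19 to 0.18 without. UTR length went along with the letters: the 4 genes had a median longest UTR of 11744 nt and the 6 others of 2094 nt, and AGO2 without the letters had 11888 nt. The part of UTR length in these values was not tested. For the siSALIS_01 letters, the 7 members with a match ran from -1.16 to -0.06 in pair 2. The 3 without a match ran from 0.01 to 0.25 there. In pair 1 the 7 ran from -0.18 to 0.18 and the 3 from -0.19 to 0.00. The 7 include all 4 members with siSALIS_02 letters, so the 2 groupings are not independent. The 7 had a median longest UTR of 10921 nt against 1767 nt for the 3, and the part of UTR length was not tested here either.

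Protein-coding genes of at least 10 CPM with an annotated 3′ UTR were grouped by their matches to the siSALIS_02 letters. In pair 2 the median log2 difference was 0.01 for 7250 genes without a match. It was -0.10 for 1630 genes with 1 match and -0.19 for 588 genes with 2 or more. In pair 1 the medians were 0.01, 0.01 and -0.02. These values are a description of 1 library against 1, with no test. Which siRNA was in siLINC01186 2 is not given in the labels. UTR lengths were not compared between these groups of genes, and the part of UTR length was not tested. The siSALIS_01 letters were not followed over all genes in this way. The share of these genes of at least 10 CPM with either siSALIS_02 heptamer was 23.4%.

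**Figure D4:**
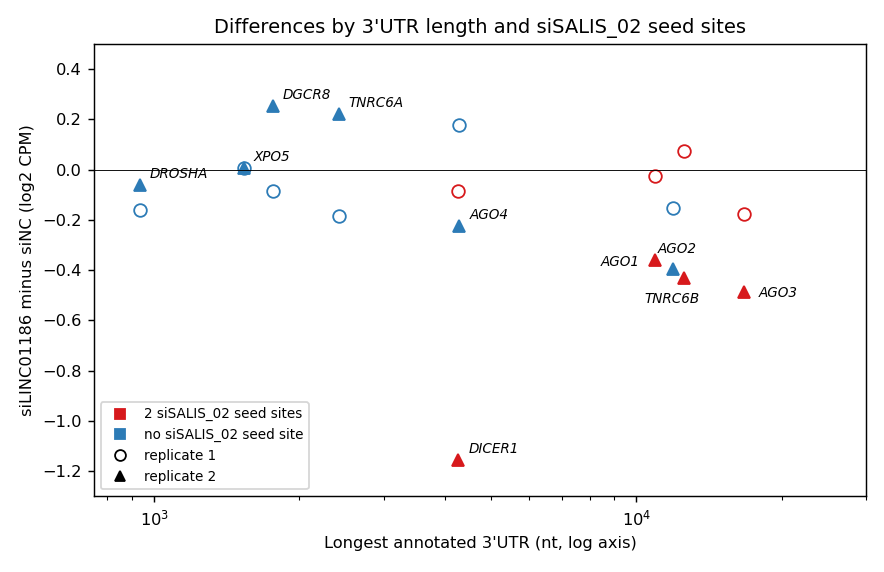
Log2 difference in CPM (siLINC01186 minus siNC) of the 10 genes against the length of the longest annotated 3′ UTR in nt (log axis). Red marks the 4 genes with 2 siSALIS_02 seed matches (both strands pooled), blue the 6 without, open circles pair 1 and filled triangles pair 2. DICER1 in pair 2 lies lowest at -1.16, and 3 of the 4 red genes and AGO2 have the longest UTRs. For AGO1, AGO2 and AGO3 this UTR is longer than the whole deposited gene length.

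The rest of the pathway was read from 5 lists that together held 81 other genes, of which 76 had enough counts to be tested. None of the 76 passed the limits, none had an unadjusted p under 0.05 and the adjusted p was 1.00 for each (edgeR's quasi-likelihood test), with 38 fold changes above 0 and 38 below and a median of 0.00. Of the 14 genes of nuclear processing and export, 5 were above 0 and 9 below, with a median log2 fold change of -0.02. DDX5, a helicase that works with DROSHA, had 437 and 328 CPM in siNC 1 and 2, and 445 and 303 CPM in siLINC01186 1 and 2. RAN, the GTPase that exportins depend on, had 609 and 467 CPM in siNC, and 663 and 404 CPM in siLINC01186. DDX17, a close relative of DDX5, had a log2 fold change of -0.05, and SRRT, which hands capped primary transcripts to DROSHA, one of 0.11. As for XPO5, the levels of DDX5 and RAN lay closer within a replicate number than between numbers.

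Of the 20 genes of dicing and Argonaute loading, 14 were above 0 and 6 below, with a median log2 fold change of 0.02. TARBP2, the RNA-binding partner of DICER1, had 51.6 and 34.9 CPM in siNC 1 and 2, and 55.6 and 40.7 CPM in siLINC01186 1 and 2. It was above its partner in both pairs, unlike DICER1, and its log2 fold change was 0.15. PRKRA, another partner of DICER1, had a log2 fold change of 0.09. HSP90AA1, a chaperone that helps to load Argonaute, had 2353 and 1486 CPM in siNC 1 and 2, and 2711 and 1672 CPM in siLINC01186 1 and 2 (log2 fold change 0.19). MOV10, a helicase found with Argonaute, had a log2 fold change of -0.09.

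Downstream of TNRC6, 12 of 26 genes of deadenylation and decapping were above 0 and 14 below, with a median log2 fold change of -0.04. CNOT1, the scaffold of the CCR4-NOT deadenylase, had 294 and 336 CPM in siNC 1 and 2, and 280 and 264 CPM in siLINC01186 1 and 2. It was lower in both siLINC01186 libraries without overlap, and its log2 fold change of -0.21 did not pass. DDX6, a decapping activator, had 94.4 and 93.3 CPM in siNC and 79.8 and 89.7 CPM in siLINC01186 (log2 fold change -0.15). PABPC1, the poly(A)-binding protein that TNRC6 contacts, and XRN1, which degrades decapped mRNA, had log2 fold changes of -0.04 and -0.08. Over the 76 genes, 6 were lower in both siLINC01186 libraries and 6 higher in both. The shares over the genes of at least 10 CPM were 12.0% and 11.8%. The 76 include genes under that level. PIWIL3, among the 6 higher, had 1 and 0 counts in siNC 1 and 2, and 3 and 5 counts in siLINC01186 1 and 2.

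Of 13 genes of microRNA tailing and turnover 12 were tested, with 3 above 0, 9 below and a median log2 fold change of -0.08. LIN28B, which blocks maturation of the let-7 microRNAs, was near the detection floor with 15 and 12 counts in siNC 1 and 2, and 2 and 14 counts in siLINC01186 1 and 2. Its log2 fold change was -0.76. It was -2.49 and past the limits without siLINC01186 2 (unadjusted p = 0.0392, adjusted p = 0.999, edgeR's quasi-likelihood test). The germline branch, whose PIWI proteins are Argonaute relatives known mainly from germ cells, had 4 of 8 genes with enough counts to be tested, all above 0, with a median log2 fold change of 0.12. PIWIL4 had 10 and 14 counts in siNC 1 and 2, and 15 and 9 counts in siLINC01186 1 and 2.

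**Figure D5:**
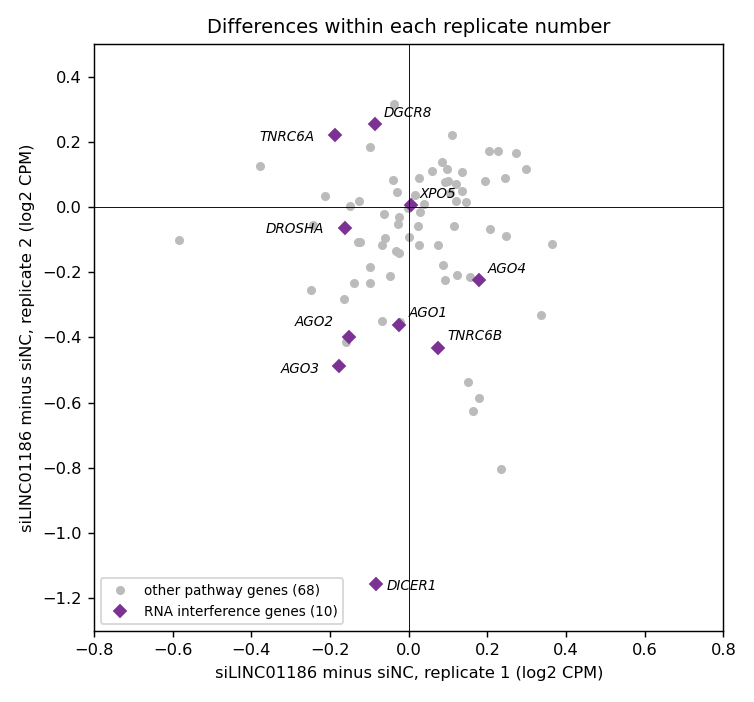
Log2 difference in CPM (siLINC01186 minus siNC) in pair 1 (horizontal) against pair 2 (vertical) for the 10 genes (diamonds) and the 68 other pathway genes with a mean of at least 10 CPM (grey points). DICER1 lies lowest on the vertical axis at -1.16 with -0.08 on the horizontal axis.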

How the data were processed

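RNA-seq was made from 2 siNC and 2 siLINC01186 libraries, grouped by the labels. The authors deposited, per library, read counts per gene and TPM, which is the count per gene length scaled to the library. The submitters' processing notes name hg19, HISAT2, HISAT, TopHat2 and Bowtie2 without roles, and the tables' coordinates were used as hg19.

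The counts went into edgeR 4.0.16 (R 4.3.3). A gene was kept at a total of 5 counts or more, which left 23942, and after TMM normalization the groups alone formed the design of the quasi-likelihood test. Adjusted p-values are Benjamini-Hochberg values over these genes, and standard errors came from the fold change and the F statistic. Log2 CPM used a prior count of 2, except in the medians of protein-coding genes by siSALIS_02 letters, where a small constant was added to the CPM. Ratios of 1 library to 1 carry 95% exact conditional intervals and no test. These and the floor of 3 counts cover counting error only. The study calls its replicates biological repeats, without saying whether they were separate cultures grown and transfected at different times, and p-values measure the spread between these libraries. The minimum of 10 CPM was chosen after values were seen. Between replicates the chi-square per gene was 20.8 (siNC) and 24.0 (siLINC01186), so no library was a copy of the other in its group. Libraries of different groups were not compared in this way.

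The members and lists were chosen with earlier results of these data known. All members and the pathway genes in a written list were named, and list genes past the limits. The siRNA sequences came from the study's supplementary list, and 3′ UTRs from GENCODE release 29 (GRCh38), which was not mixed with the hg19 positions. Alternatives were DESeq2 1.42.0, its size factors, total counts, other filters, the replicate number as a block, each library left out, the deposited TPM, and a prior count of 0.5.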

Additional observations from a re-analysis of the deposited data

How the results depend on the processing

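Of 110 recomputed member fold changes, 100 kept their sign and their side of the limits. DICER1 alone came to pass the limits, without siLINC01186 replicate 1 (-1.19). With genes of at least 1 count kept, DICER1 stayed inside the limits at -0.52. Its unadjusted p was then 0.0194 (edgeR's quasi-likelihood test), with 0 members at an adjusted p under 0.05. Reversed log2 fold changes without siNC replicate 2 were 0.21 for AGO4, -0.14 for DGCR8 and -0.13 for XPO5. Others were -0.15 for XPO5 without siLINC01186 replicate 1, and for TNRC6A -0.02 without siNC replicate 1 and -0.25 without siLINC01186 replicate 2. In the deposited TPM, DGCR8 was at -0.10, XPO5 at -0.17 and TNRC6A at -0.11, and the TPM share of MIR6087 lowers every other gene there. With each library left out in turn, DICER1 ranged from -1.19 to -0.06, AGO1 from -0.29 to -0.09, AGO2 from -0.39 to -0.16, AGO3 from -0.42 to -0.25, AGO4 from -0.25 to 0.21, DROSHA from -0.21 to -0.01, DGCR8 from -0.14 to 0.32, XPO5 from -0.15 to 0.16, TNRC6A from -0.25 to 0.28 and TNRC6B from -0.33 to -0.02. Members past the limits then numbered 0 to 1, other pathway genes 0 to 1 (LIN28B without siLINC01186 replicate 2), and all genes 248 to 375. All genes past the limits numbered 181 in the fit reported, 27 by DESeq2's Wald test and 46 with edgeR's expression filter, which tests fewer genes (16848), and the cause of the first was not tested.

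With the replicate block, 120 genes were higher and 100 lower past the limits, and 0 members. Libraries share only a number: their deviations from the group means correlated at 0.563 over 16848 genes. In this edgeR fit 278 of 23942 genes had an adjusted p under 0.05 and 2005 an unadjusted p under 0.05, against 0 and 289 without the block. Of the members, DICER1 was at -0.61 (adjusted p = 0.000548, edgeR's quasi-likelihood test). Its log2 differences were -0.08 in pair 1 and -1.16 in pair 2, so this value rests mainly on siLINC01186 2. By the same test AGO2 was at -0.28 (unadjusted p = 0.0221, adjusted p = 0.436) and AGO3 at -0.34 (unadjusted p = 0.0292, adjusted p = 0.496). No other member had an unadjusted p under 0.05 in this fit. With 2 libraries a group, depth limits LINC01186 (12 to 15 counts) more than any member (199 to 3045 counts).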

Other observations

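Among the pathway genes of at least 10 CPM, those with the lowest log2 differences in pair 2 (siLINC01186 minus siNC, log2 CPM) were chosen after their values were seen. CNOT6L, a catalytic subunit of the CCR4-NOT deadenylase, was at -0.80 in pair 2 and at 0.24 in pair 1. EIF4E2, a cap-binding protein, was at -0.62 and 0.16, ERH, a partner of DGCR8, at -0.59 and 0.18, and PAN3, of the PAN2-PAN3 deadenylase, at -0.54 and 0.15. All 4 were above 0 in pair 1 and below 0 in pair 2. CNOT6L held 2 matches to the siSALIS_02 seeds in its longest 3′ UTR, ERH and PAN3 1 each and EIF4E2 0. The lowest in pair 1 was DCP1A, a decapping factor, at -0.58, with -0.10 in pair 2.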
